A study of Rattus norvegicus with 64 samples.

Results

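The messenger RNAs of 6 neural intermediate filament proteins were followed in the entorhinal cortex of the rat: Nefl, Nefm, Nefh, Ina, Vim, and Nes. They were taken by gene name and are 6 of the 17260 genes counted in every library. Nefl, Nefm, and Nefh encode the light, medium, and heavy neurofilament subunits, Ina encodes alpha-internexin, Vim encodes vimentin, and Nes encodes nestin.

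Intermediate filaments are rope-like polymers that give cells mechanical strength, and neurons exchange one set of them for another as they mature. Dividing neural progenitors hold nestin together with vimentin, young postmitotic neurons hold alpha-internexin, and the neurofilament triplet accumulates in axons and widens them, above all in large projection neurons and fast-spiking cells. Vimentin is also a filament of fibroblasts, endothelial cells, mural cells, and immature or reactive astrocytes.

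Total RNA was sequenced after removal of ribosomal RNA from Long Evans rats at postnatal day 2 (P2), P9, P23, and P45, and no group carried a genetic change or a drug. The medial (MEC) and the lateral (LEC) entorhinal cortex were each divided into layer II (LII) and the deeper layers III to VI (LDeep), which gives 16 groups and 64 libraries. Each of the 4 combinations of region and layer had 5 libraries of P2, 4 of P9, 3 of P23, and 4 of P45. Tissue was cut by hand from brain slices under a microscope, so each library is a mixture of cell types in which fewer cells of a type and less RNA per cell cannot be told apart. The labels do not state that the replicates of a group were separate animals. The study describes the replicates of its laminar MEC experiment, mRNA included, as biological. Without animal labels, p-values measure the spread between these libraries. For the microRNA samples of MEC the study ties a number to an animal sampled in both layers, and for the libraries used here the labels give a replicate number only. Between 3894334 and 11439143 counts per library fell on genes (median 7569157.5). The least counted of the 6 genes was Nes, with 8 to 501 counts per library, and Nefl had 117 to 6149.

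Some libraries stood apart from their groups, and 3 of them, all from MEC at P2, are followed through the results. MEC LII P2 replicate 1 held 0.631 CPM (the gene's count scaled to library size) of Slc17a7, the vesicular glutamate transporter of cortical excitatory neurons, against 243 to 2040 CPM in the other 63 libraries, and 455 CPM of Zic1 against at most 80.7. It was also low in Col1a1, a collagen gene of fibroblasts, at 10.7 CPM where 30 LII libraries held 42.8 to 392. MEC LII P2 replicate 3 held 447 CPM of Th and 452 CPM of Slc6a3, genes of dopamine neurons. The other libraries reached at most 64.8 and 25.4, with medians of 1.01 and 0.121. Libraries with these highest other values were not set aside below. MEC LII P2 replicate 3 also held 3.61 CPM of Col1a1. MEC LDeep P2 replicate 1 held 303 CPM of Col1a1, a level seen in LII, while the other 31 LDeep libraries held 0.701 to 35.7. All 3 go against their labels in these genes, so they are called below the libraries labelled in this way. Otherwise the layer markers mostly followed the labels, with Reln, Calb1, and Lef1 higher in LII (Etv1 was lower). All 6 markers of deep-layer neurons were higher in LDeep, led by Fezf2 with a log2 fold change (LFC) of LII over LDeep of -3.17. Results that rest on these 3 libraries are given for all 64 libraries and for the other 61, a choice made after seeing the data. Another 3 libraries held 1280 to 2210 CPM of ribosomal Rn28s against at most 609 elsewhere, and 4 held 31.7 to 212 CPM of the cerebellar gene Gabra6 against at most 2.45, with 1 library in both sets. Leaving out either set also changed some counts of genes called, which are given in the closing section.

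The filament genes lie on separate chromosomes of the rn6 build, with the exception of Nefl and Nefm. Nefl occupies chromosome 15 from 44799378 to 44803251 on the plus strand, and Nefm lies on the minus strand from 44855308 to 44860595, a gap of 52056 bases. Nefh lies on chromosome 14 (85181572 to 85191557, minus strand), Ina on chromosome 1 (266781617 to 266794428, plus strand), Vim on chromosome 17 (80882715 to 80891200, plus strand), and Nes on chromosome 2 (187343929 to 187352969, plus strand). Counts were summed over all exons of each gene, and none of these exons overlapped those of another gene.

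RefSeq promoter sequence (GRCr8 build) matched 3 of the 6 genes, Ina, Vim, and Nes, and not Nefl, Nefm, or Nefh. The 150 bases before the start of each of these are shown, since the level of all 3 was lower at P23/P45 and the table holds them. Capitals mark matches on either strand to TATAA, to CCAAT, and to GGGCGG, which is CCGCCC on the opposite strand.
Ina, chr1:255837979-255838128, plus strand: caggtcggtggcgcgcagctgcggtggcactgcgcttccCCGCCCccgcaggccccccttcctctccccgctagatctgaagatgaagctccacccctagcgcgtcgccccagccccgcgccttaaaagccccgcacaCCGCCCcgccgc
Vim, chr17:81577111-81577260, plus strand: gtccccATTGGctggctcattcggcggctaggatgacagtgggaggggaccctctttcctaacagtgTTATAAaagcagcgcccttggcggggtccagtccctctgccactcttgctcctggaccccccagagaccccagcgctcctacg
Nes, chr2:175736438-175736587, plus strand: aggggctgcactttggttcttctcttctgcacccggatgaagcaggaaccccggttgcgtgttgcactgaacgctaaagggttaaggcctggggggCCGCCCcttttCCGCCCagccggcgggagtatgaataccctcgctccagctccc
In these windows Vim held TATAA, overlapping on both strands, and CCAAT on the opposite strand but not GGGCGG, whereas Ina and Nes each held 2 copies of GGGCGG and neither of the others. Of 33469 rat promoter windows of the same length, 15.2% held TATAA, 23.5% held CCAAT, and 26% held GGGCGG on either strand.

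All 6 genes changed with age. Comparing P23/P45 with P2/P9, the neurofilament triplet was up-regulated, and Ina, Vim, and Nes were down-regulated (edgeR quasi-likelihood test with Benjamini-Hochberg adjustment over 12521 genes, threshold 0.05). All 6 genes were therefore differentially expressed, in a contrast where 81.6% of all genes tested were. The plot of the 6 genes by age gives every library.

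**Figure D1:**
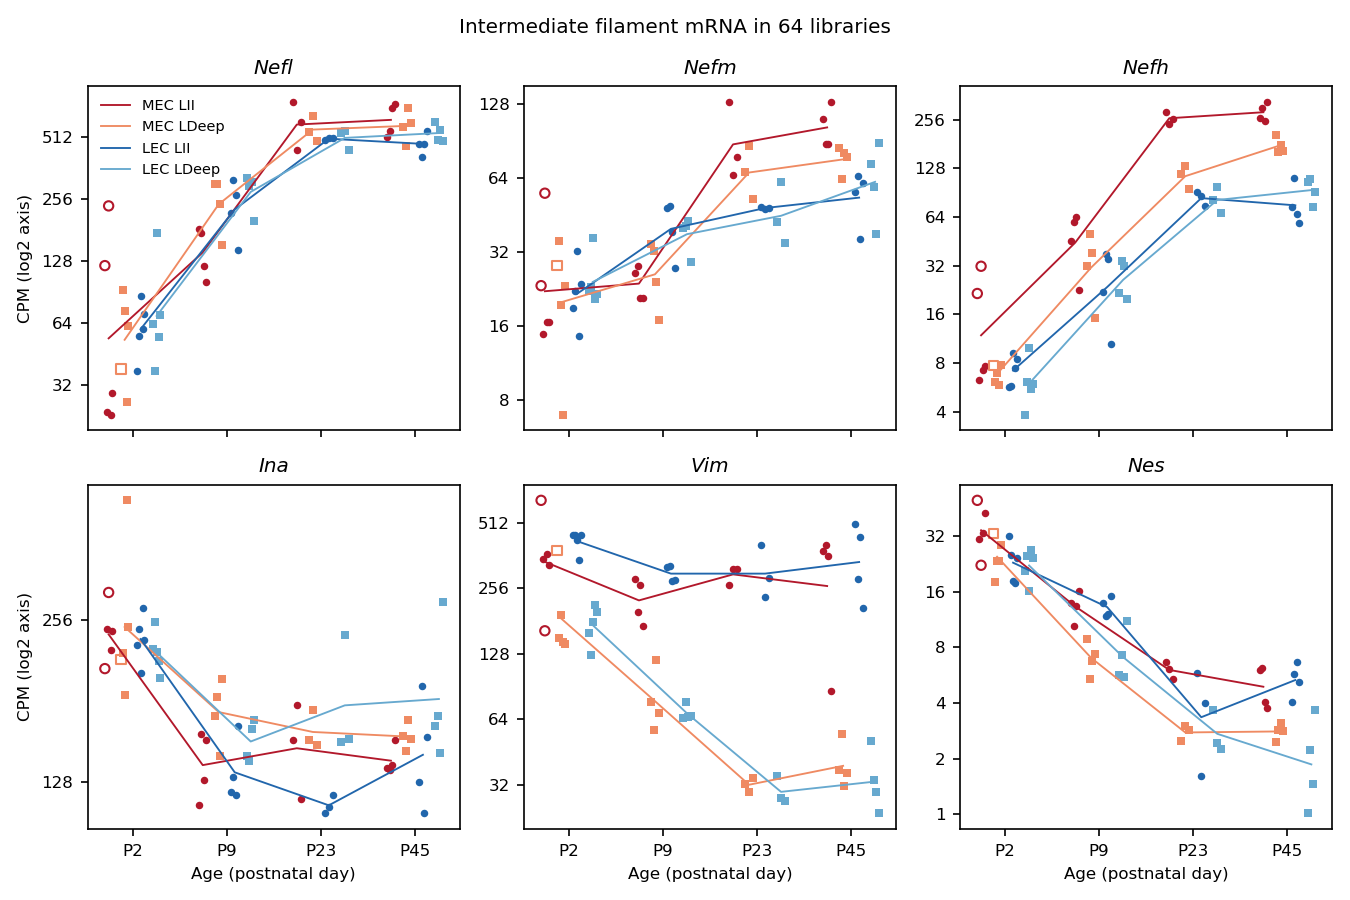
CPM of each gene (log2 axis) at P2, P9, P23, and P45 for MEC and LEC, LII and LDeep; points are libraries, lines join geometric means, and open symbols mark the 3 MEC P2 libraries that stood apart. Nefl, Nefm, and Nefh were higher at P23 and P45 and Nes was lower, while Vim was lower at P23/P45 in LDeep and spanned 86 to 505 CPM there in LII.

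Nefl, the subunit on which the others assemble, was the most abundant of the triplet per kilobase of exon. At P2 its level over the 20 libraries had a median of 60.9 CPM (23 to 238), at P9 of 232 (102 to 324), at P23 of 525 (445 to 764), and at P45 of 551 (413 to 742). Every P23/P45 library was above every P2/P9 library, in each of the 4 combinations of region and layer. The share of all genes that separated in this way was not counted, here or for the separations between ages, layers, or regions given below. The LFC of P23/P45 over P2/P9 was 2.13 ± 0.15 (SE; adjusted p = 7.2e-19), and 2.34 ± 0.11 without the 3 libraries. In the library labelled MEC LII P2 replicate 3 Nefl was at 238 CPM and in replicate 1 at 122, where the other 3 libraries of that group held 23.7, 23, and 29.2 CPM.

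Nefh, the heavy subunit whose long tail is phosphorylated in mature axons, had the largest LFC of the 6, 2.96 ± 0.12 (adjusted p = 3.3e-29), which is 7.8-fold. The MEC LII libraries held 21.5, 6.23, 31.7, 7.21, and 7.64 CPM at P2, then 45.5, 59.2, 63.7, and 22.6 at P9, then 286, 240, and 260 at P23, and finally 262, 303, 250, and 331 at P45. The LEC LII libraries held 5.67, 5.79, 9.2, 7.43, and 8.45 CPM at P2, then 22.1, 38, 35, and 10.5 at P9, then 91.2, 86.5, and 74.4 at P23, and finally 73.8, 112, 66.6, and 59.1 at P45. The regions thus overlapped at P2 and at P9, with the 2 high MEC values at P2 from the libraries that stood apart, and were separate at P23 and at P45. MEC LDeep went from 5.86 to 7.79 CPM in the P2 libraries over 15.2 to 50.5 (P9) and 95.4 to 133 (P23) to 162 to 207 in the P45 libraries. LEC LDeep held 3.82 to 9.84, 19.8 to 34.2, 67.9 to 97.8, and 73.4 to 110 CPM at the same ages. As for Nefl, no P2/P9 library reached the lowest P23/P45 library of its region and layer.

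Nefm, the medium subunit, changed less, with an LFC of 1.28 ± 0.11 (adjusted p = 2.3e-15). Its median was 22.2 CPM at P2 (6.99 to 55.6), 30.7 at P9 (17 to 49.2), 57.2 at P23 (34.8 to 131), and 75.7 at P45 (36.2 to 130). The younger and older libraries were separate in both layers of MEC, where the highest younger value of LII, 55.6 CPM, lay below the lowest older value of 66.1, and they overlapped in both layers of LEC.

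Ina, the filament protein of young neurons, showed the smallest change, an LFC of -0.30 ± 0.06 (adjusted p = 2.1e-05). It had a median of 228 CPM at P2 (186 to 427) and of 148 to 154 CPM at each later age. The decline fell between P2 and P9, with an LFC of -0.69 ± 0.08 (adjusted p = 4.5e-10), and the value of P23 over P9 was 0.01 ± 0.09 (adjusted p = 0.958). The younger and older libraries overlapped in all 4 combinations of region and layer.

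Nes, the progenitor filament, had a median of 24.6 CPM at P2 (16.1 to 50.1), 10.8 at P9 (5.43 to 16.1), 3.34 at P23 (1.62 to 6.7), and 3.72 at P45 (1.01 to 6.66). Its LFC was -2.16 ± 0.10 (adjusted p = 1.4e-26), a decline of 4.48-fold, and no older library overlapped a younger one of its region and layer. The lowest values correspond to as few as 8 counts, so the levels at P23 and P45 carry a large counting error.

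Vim declined with an LFC of -0.91 ± 0.12 (adjusted p = 4.2e-10), but not in both layers. In LDeep the LFC was -1.83 ± 0.24 in MEC (adjusted p = 3e-09) and -1.77 ± 0.24 in LEC (adjusted p = 9e-09), while in LII it was 0.05 ± 0.22 and -0.10 ± 0.22 (adjusted p = 0.861 and 0.702). The difference between the layers in this change was itself significant, with a layer by age interaction of 1.77 ± 0.23 (adjusted p = 9.8e-08). Vim was the only 1 of the 6 genes with such an interaction in all 64 libraries, against 8.80% of all genes, and without the 3 libraries Nefl joined it (0.69 ± 0.21, adjusted p = 0.0237).

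Within single combinations of region and layer, contrasts added after seeing the data, the counts were similar. In MEC LII 5 of the 6 genes passed for the same ages (66.5% of all genes), in MEC LDeep all 6 (66.2%), in LEC LII 5 (62.7%), and in LEC LDeep 5 (64.5%). Vim was the exception in both LII parts, and Ina was the exception in LEC LDeep, at 0.00 ± 0.13. The LFC of Nefl was 2.45 in MEC LII, 2.24 in MEC LDeep, 2.01 in LEC LII, and lowest in LEC LDeep, that of Nefh from 2.52 in LEC LII to 3.34 in MEC LII, and that of Nes from -2.46 to -1.95. Without the 3 MEC P2 libraries the values in MEC LII were 3.34 ± 0.24 for Nefl, 2.31 ± 0.22 for Nefm, and 3.89 ± 0.23 for Nefh.

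Most of the change took place before P23. From P2 to P9 all 6 genes changed (63.4% of all genes), and 5 to 6 did when 1 replicate number or library was left out. The LFC was 1.64 ± 0.20 for Nefl, 0.41 ± 0.15 for Nefm (edgeR, adjusted p = 0.0169), and 1.98 ± 0.17 for Nefh. Vim and Nes changed by -0.97 ± 0.15 and -1.42 ± 0.12 over the same week. Between P9 and P23, 5 of the 6 genes changed (64.6% of all genes), Ina being the exception. Nefl rose by a further 1.29 ± 0.22, Nefm by 0.95 ± 0.17, and Nefh by 1.87 ± 0.17 on the log2 scale, and Nes fell by 1.42 again. None of the 6 genes passed between P23 and P45 by the edgeR test (LFC of -0.07 to 0.25, adjusted p of 0.512 or more), where 3.85% of all genes did. At an unadjusted p under 0.05 the count was 0 as well, and it was 0 by DESeq2 and 0 by limma voom.

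The proportions of the 4 neurofilament genes, including Ina, were compared per kilobase of exon within each library, so that they do not depend on library size. At P2 Ina made up 56.5% ± 14.2 of the 4 (SD, n = 20 libraries of both regions and layers) and Nefl 33.3% ± 13.1. At P9 Nefl had become the largest, with 66.9% ± 7.67 against 21.1% ± 6.8 for Ina (n = 16). At P45 Nefl made up 73.6% ± 5.19, Nefh 10.5% ± 4.55, Ina 9.42% ± 2.77, and Nefm 6.46% ± 1.42 (n = 16). The share of Nefh thus passed that of Nefm, which it trailed at P2 with 2.23% ± 0.846 against 7.98% ± 2.07. The P45 shares of Nefh differed between regions, from 13.7% to 19.2% in MEC LII and from 4.51% to 9.84% in LEC LII. In replicate 4 of both LEC layers at P45 Nefm was still above Nefh, at 5.86% against 4.51% in LII and at 8.2% against 6.61% in LDeep.

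**Figure D2:**
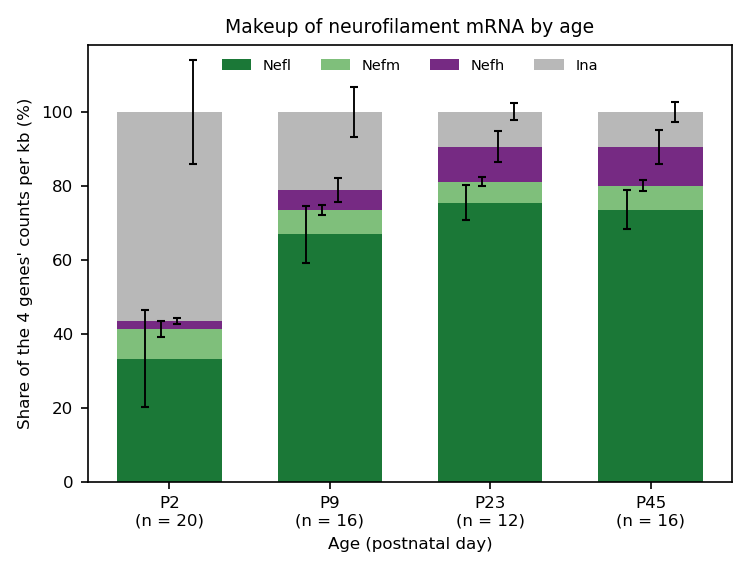
Mean share (%) of Nefl, Nefm, Nefh, and Ina in their summed counts per kilobase at each age, stacked, with SD over libraries as error bars at the top of each segment (n = 20, 16, 12, and 16). Ina was the largest at P2 and Nefl from P9 onwards.

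The same shift was tested as log2 ratios between pairs of genes, P2/P9 (n = 9) against P23/P45 (n = 7), in each combination of region and layer alone. Of 16 tests (exact permutation test, two-sided, Benjamini-Hochberg adjustment over the 16), 14 passed 0.05. The ratio of Ina to Nefl changed most, by -3.27 in MEC LII, -2.88 in MEC LDeep, -2.65 in LEC LII, and -2.09 in LEC LDeep. In both MEC parts the younger and older libraries did not overlap, with an exact permutation p of 0.00017, the smallest this design can give (adjusted p = 0.0007), and in LEC LII and LEC LDeep the adjusted p of this exact permutation test was 0.0014 and 0.00245.

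Nefh rose relative to Nefl in all 4 parts, by 0.81 in MEC LII, 1.00 in MEC LDeep, 0.53 in LEC LII, and 0.91 in LEC LDeep (exact permutation test, adjusted p = 0.00476, 0.00249, 0.00956, and 0.0016). Between P2 and P45 alone the value in LEC LII was 0.40 and did not pass (exact permutation test, adjusted p = 0.175). Nefm fell relative to Nefl in MEC LII, LEC LII, and LEC LDeep, with differences of -0.81, -1.32, and -1.16 (exact permutation test, adjusted p = 0.0359, 0.0014, and 0.00712), while in MEC LDeep the difference of -0.77 did not pass (adjusted p = 0.0614). Nes fell relative to Vim in LII, with a difference of -2.04 in MEC and of -1.87 in LEC and without overlap of the ages. In LDeep, where both genes declined, the ratio differed by -0.53 in MEC and by -0.75 in LEC (exact permutation test, adjusted p = 0.0396 and 0.0509). Without the 3 MEC P2 libraries 13 tests passed, and the change of Nefm over Nefl in MEC LII was then lost (-0.92, exact permutation test, adjusted p = 0.0572).

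Between the layers, Vim showed the largest difference of the 6 genes. It was higher in LII than in LDeep with an LFC of 2.33 ± 0.12 (adjusted p = 9.6e-23), and Nes was higher by 0.78 ± 0.10 (adjusted p = 2.8e-09) and Nefh by 0.44 ± 0.12 (adjusted p = 0.0018). Ina was lower in LII, with an LFC of -0.22 ± 0.06 (adjusted p = 0.00265). The values for Nefm (0.08 ± 0.11) and Nefl (-0.10 ± 0.15) did not pass, but without the 3 MEC P2 libraries Nefl was lower in LII (-0.33 ± 0.11, adjusted p = 0.00739). The count of 4 of 6 compares with 54.0% of all genes tested, whose median LFC was -0.05.

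In MEC, 3 of the 6 genes differed between layers (40.8% of all genes), namely Vim, Nes, and Nefh. In LEC, 3 also differed (38.6%), namely Vim, Nes, and Ina. Nefh was higher in MEC LII than in MEC LDeep by 0.88 ± 0.17 (adjusted p = 2.1e-05), and in LEC the difference was -0.01 ± 0.18. The interaction of layer and region for Nefh was 0.89 ± 0.24 (adjusted p = 0.0427), the only 1 of the 6 genes to pass where 1.25% of all genes did. It did not pass without the 3 MEC P2 libraries (0.61 ± 0.21, adjusted p = 0.123). Leaving out single libraries or replicate numbers also ended the call in most cases while the LFC stayed between 0.72 and 0.95, at 0.84 without MEC LII P2 replicate 1 (adjusted p = 0.0576) and at 0.85 without MEC LII P45 replicate 4 (adjusted p = 0.0745). Nefh passed with DESeq2 (0.87, adjusted p = 0.0291) and with replicate number as a fixed block (0.87, adjusted p = 0.00136) or a random one (0.85, adjusted p = 0.0224). It did not pass with limma voom (0.87, adjusted p = 0.0597). With edgeR it did not pass with RLE size factors (0.88, adjusted p = 0.0503) or with no filter on low counts (0.88, adjusted p = 0.0539). At P23/P45 alone, a contrast added after seeing the data, the interaction was 1.07 ± 0.34 in 64 libraries (adjusted p = 0.255) and 1.06 ± 0.27 in 61 (adjusted p = 0.0439).

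The layer difference of Vim widened with age. At P2 its LFC was 1.07 ± 0.20, at P9 1.82 ± 0.23, at P23 3.28 ± 0.28, and at P45 3.15 ± 0.24, and all 4 passed. The LEC LII libraries held 448, 448, 426, 345, and 449 CPM of Vim at P2 and 505, 283, 438, and 207 at P45. The LEC LDeep libraries held 160, 126, 179, 215, and 199 CPM at P2 and 50.6, 33.7, 29.7, and 23.6 at P45. In MEC LII the P45 libraries held 378, 403, 358, and 86 CPM, and in MEC LDeep 37.2, 54.8, 31.5, and 36.2. Libraries of LII were above those of LDeep without overlap in 7 of the 8 combinations of region and age, the exception being MEC at P2.

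At P2, 2 of the 6 genes differed between layers (19.2% of all genes), Vim and Nefh. Nefh was higher in LII by 0.69 ± 0.25 (adjusted p = 0.0445), a value that was 0.16 ± 0.24 without the 3 libraries. In the same 61 libraries Nefl was lower in LII at P2, with an LFC of -0.85 ± 0.21 (adjusted p = 0.00205), where all 64 gave 0.10 ± 0.27. At P9 (33.0% of all genes), P23 (25.9%), and P45 (26.4%), Vim and Nes were the 2 genes called in all 64 libraries. Without the 3 libraries Nefh (0.61 ± 0.21, adjusted p = 0.0209) and Ina (-0.37 ± 0.14, adjusted p = 0.0448) passed at P23 too, and Nefl (-0.50 ± 0.20, adjusted p = 0.0498) at P9. With replicate number as a fixed block Nefh (0.62, adjusted p = 0.00561) and Ina (-0.36, adjusted p = 0.0316) also passed at P23, and as a random block Nefh no longer passed at P2 (0.59, adjusted p = 0.139) nor Nes at P23 (0.69, adjusted p = 0.082). Nes differed by 0.88 ± 0.18 at P9, 0.78 ± 0.24 at P23, and 1.16 ± 0.21 at P45.

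**Figure D3:**
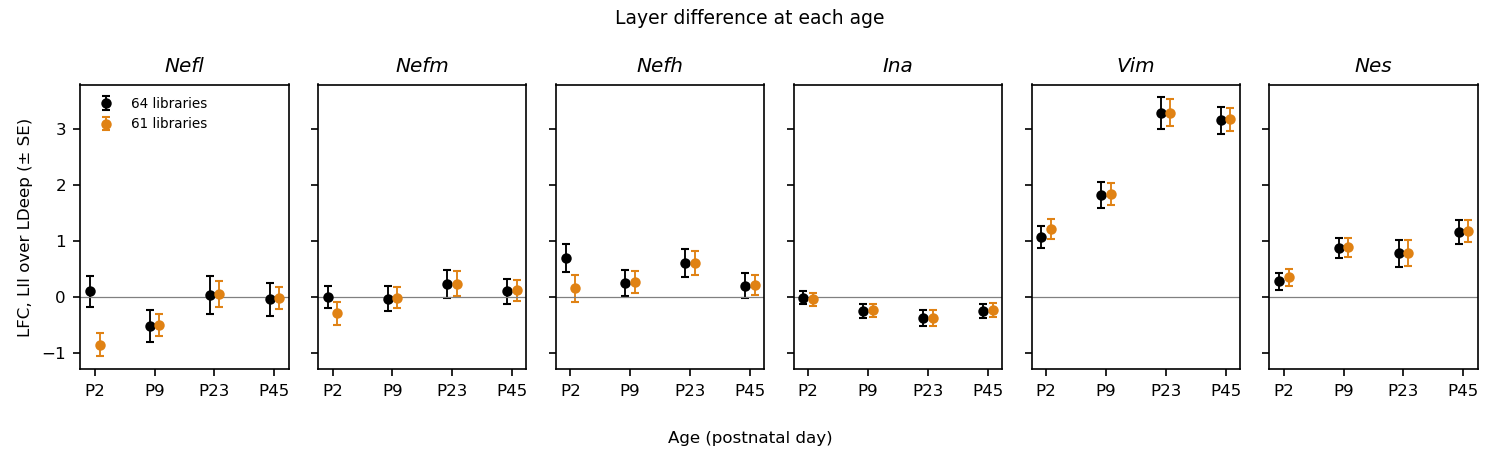
LFC of LII over LDeep (± SE) for each gene at P2, P9, P23, and P45, from all 64 libraries (black) and from 61 without the 3 MEC P2 libraries that stood apart (orange). The LFC of Vim went from 1.07 at P2 to 3.15 at P45, and the P2 values of Nefl and Nefh depended on the 3 libraries.

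Markers of other cell types also differed between the layers. Of 8 markers of meningeal fibroblasts, the cells that cover the cortical surface, 7 were higher in LII, with a median LFC of 3.79 for the list, and 1, Dcn, was lower (-0.48). Their summed level was 29 to 1580 CPM in LII and 29.5 to 1090 in LDeep, and 694 to 1470 against 29.5 to 257 within LEC. None of the 32 libraries of LII or of LDeep was at 0 for Col1a1. Of the markers of endothelial cells 6 of 6 were higher in LII, of mural cells 5 of 6, and of astrocytes 5 of 6, with median LFC of 0.88, 0.78, and 0.82. The summed endothelial markers were at 152 to 446 CPM in LII and 119 to 322 in LDeep, the mural markers at 204 to 508 and 134 to 362, and the astrocyte markers at 878 to 5040 and 553 to 3070. Of the astrocyte list, Gfap is itself an intermediate filament. All of these cells can contain vimentin, and their part in the layer difference of Vim was not tested.

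Vim and the meningeal markers are given here for single libraries picked for their extreme values. MEC LII P45 replicate 4 had the lowest Vim of any LII library, 86 CPM, and the lowest meningeal sum among the LII libraries of P23 and P45, 252 CPM. The library labelled MEC LDeep P2 replicate 1 had the highest Vim of LDeep, 380 CPM, and the highest meningeal sum of LDeep, 1090 CPM. It had been singled out by its Col1a1, which is itself in the meningeal list. By contrast, the library labelled MEC LII P2 replicate 1 had the highest Vim of all libraries, 648 CPM, at the lowest meningeal sum, 29 CPM. It was also the library with 141 CPM of Foxj1, a gene of ciliated cells, against at most 11.6 elsewhere.

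**Figure D4:**
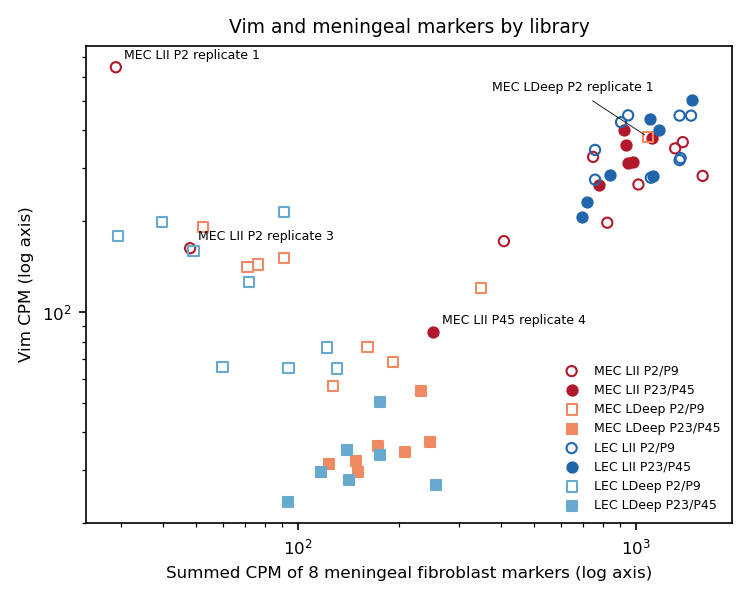
Vim CPM against the summed CPM of 8 meningeal fibroblast markers in each library (both axes log), by region, layer, and age; open symbols are P2/P9 and filled symbols P23/P45. Most LII libraries lie at the upper right, P23/P45 LDeep libraries at the lower left with Vim of 23.6 to 54.8 CPM, and the 4 libraries named on the plot depart from their groups.

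Summed markers of progenitors and of dividing cells declined in both layers, as Nes did, whereas Vim declined in LDeep only. All 5 markers of dividing cells fell between P2/P9 and P23/P45 (81.6% of all genes changed), with a median LFC of -3.41. Their sum went from 64.3 to 254 CPM at P2/P9 in LDeep to 9.2 to 20.7 at P23/P45. In LII, where Vim did not pass, it went from 88.7 to 254 CPM to 11.6 to 22.5. The progenitor sum went from 680 to 1300 CPM to 122 to 177 in LII. In LDeep it went from 357 to 1340 CPM to 97.3 to 139. Of 6 progenitor markers 4 fell, where 5079 of 12521 genes did, including Fabp7 (-3.97), while Hes1 rose slightly (0.22). Endothelial cells also express Nes in young vessels, and of their 6 markers 3 rose and 1, Kdr, fell by 0.98. Of the 8 meningeal markers none passed between these ages in all 64 libraries by the edgeR test. Without the 3 MEC P2 libraries 5 were higher at P23/P45 (median LFC 0.49), where 82.7% of all genes changed. The parts of these cells in the change of Nes and Vim were not tested.

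Between the regions, Nefh was the only 1 of the 6 genes that differed over all ages and layers, against 15.4% of all genes tested. It was higher in MEC than in LEC by 0.91 ± 0.12 (adjusted p = 4.9e-08), or 1.88-fold, and by 0.76 ± 0.10 without the 3 MEC P2 libraries. The values for the other 5 genes lay between -0.01 and 0.23, with adjusted p of 0.119 or more. In LII alone Nefh was again the single gene to pass (12.6% of all genes), with an LFC of 1.35 ± 0.17 (adjusted p = 2.4e-08). In LDeep none of the 6 passed by the edgeR test (5.78% of all genes), Nefh being at 0.47 ± 0.17 (adjusted p = 0.1), and without the 3 libraries Nefh passed at 0.46 ± 0.14 (adjusted p = 0.0362). At an unadjusted p under 0.05 the count in LDeep was 1, namely Nefh, and the adjusted count was 0 by DESeq2, 0 by limma voom, and 1, again Nefh (0.46, adjusted p = 0.00867), with replicate number as a fixed block.

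The regional difference was tested for a change with age. The region by age interaction passed for Nefm in all 64 libraries (0.96 ± 0.22, adjusted p = 0.00515), 1 of 6 genes where 4.38% of all genes passed. Without the 3 MEC P2 libraries it passed for the whole triplet, with 0.86 ± 0.21 for Nefl (adjusted p = 0.00691), 1.16 ± 0.20 for Nefm (adjusted p = 7.4e-05), and 0.93 ± 0.21 for Nefh (adjusted p = 0.00222). With replicate number as a block, fixed or random, 2 genes passed in all 64 libraries, Nefm and Nefh, the latter at 0.68 (adjusted p = 0.00782) with the fixed block. In each case MEC gained relative to LEC between P2/P9 and P23/P45. For Nefm the LFC of MEC over LEC was also taken by age, in contrasts added after seeing the data. At P2 it was 0.21 ± 0.29 in LII and -0.11 ± 0.29 in LDeep (edgeR test, adjusted p = 0.758 and 0.919). At P9 it was -0.77 ± 0.32 in LII (adjusted p = 0.355) and -0.51 ± 0.31 in LDeep (adjusted p = 0.766). At P23/P45 the values were 0.93 ± 0.24 in LII (adjusted p = 0.00609) and 0.41 ± 0.23 in LDeep (adjusted p = 0.463). Of these only the value in LII at P23/P45 passed, so a change of sign was not established.

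At P23/P45 in LII, Nefh was higher in MEC by 1.76 ± 0.24 (adjusted p = 4.2e-07) and Nefm by 0.93 ± 0.24 (adjusted p = 0.00609), so that 2 of the 6 genes differed in a contrast, added after seeing the data, where 8.22% of all genes did. The 7 MEC LII libraries held 240 to 331 CPM of Nefh and the 7 LEC LII libraries 59.1 to 112. For Nefm they held 66.1 to 131 and 36.2 to 65.5 CPM, again without overlap. In LDeep at the same ages none of the 6 passed by the edgeR test in all 64 libraries (4.15% of all genes), and Nefh was at 0.69 ± 0.24 (adjusted p = 0.095), a value that passed in the 61 libraries (0.70 ± 0.19, adjusted p = 0.0177). Nefh was also the 1 gene with an unadjusted p under 0.05 there.

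In LII at P2 the 3 libraries decided the direction for Nefl, which was at 0.50 ± 0.38 with all 64 libraries (adjusted p = 0.501) and lower in MEC, at -1.30 ± 0.33, with 61 (adjusted p = 0.0193).

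**Figure D5:**
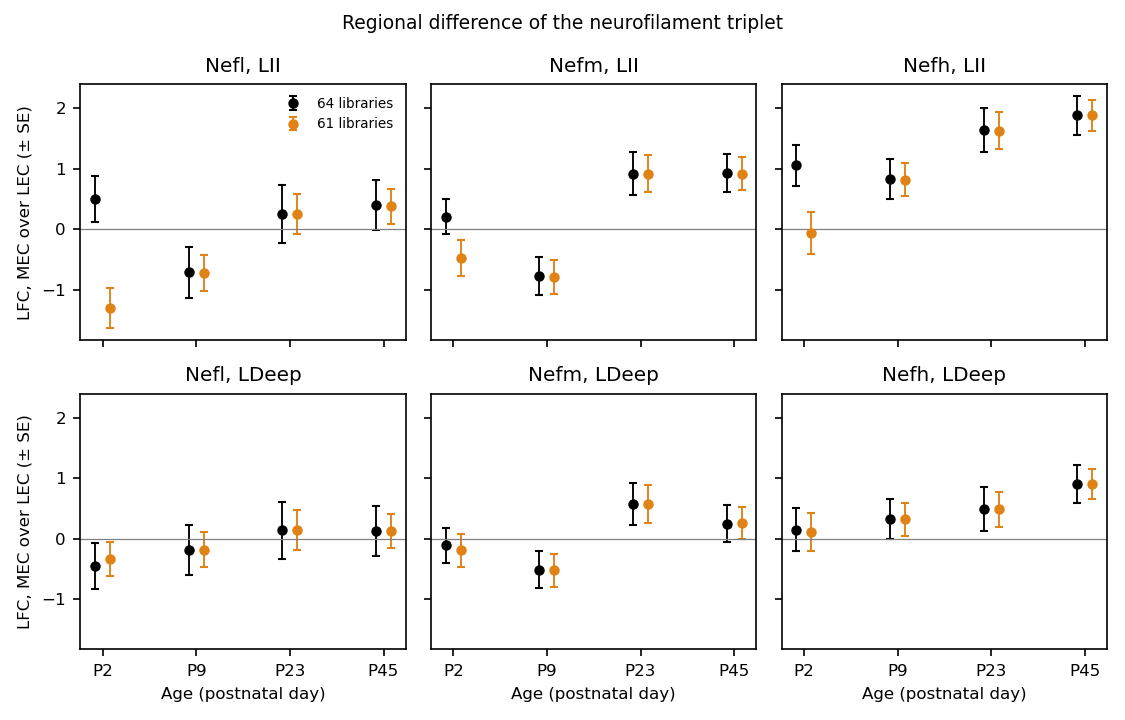
LFC of MEC over LEC (± SE) for Nefl, Nefm, and Nefh in LII (top) and LDeep (bottom) at each age, from 64 libraries (black) and 61 (orange). In LII the LFC of Nefh was 1.64 at P23 and 1.88 at P45, while at P2 the values with 64 and with 61 libraries were 1.06 and -0.06 for Nefh and 0.50 and -1.30 for Nefl.

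Markers of neurons rich in neurofilament moved partly in the same direction as Nefh. Of 6 such markers (Pvalb, Kcnc1, Kcna1, Kcna2, Scn4b, and Spp1), 5 rose with age, led by Pvalb at 7.24, and Spp1 fell by 1.66. With age 81.6% of all genes changed. Between regions 3 were higher in MEC (15.4% of all genes differed), namely Scn4b (0.93), Kcna1 (0.52), and Kcna2 (0.28). Pvalb (0.86) and Spp1 (1.14) did not pass. These 3 calls were lost without the 3 MEC P2 libraries (median LFC of the list 0.30). Within LII at P23/P45, 3 of the 6 were higher in MEC in 64 libraries (8.22% of all genes differed) and 4 in 61. Their summed level at P23/P45 was 385 to 546 CPM in MEC LII, 196 to 457 in LEC LII, 283 to 375 in MEC LDeep, and 211 to 393 in LEC LDeep. General neuronal markers differed little over all ages and layers, with 1 of 6 higher and 1 lower in MEC. In LII at P23 their sum was higher in MEC, at 5460 to 5820 CPM against 4700 to 4980 in LEC. At P45 the regions overlapped, at 5260 to 6670 CPM in MEC LII and 4080 to 6490 in LEC LII (medians 5700 and 5040). Of 6 oligodendrocyte markers 3 were higher in MEC over all ages (15.4% of all genes differed). In the region by age interaction 5 passed (4 in 61 libraries), where 4.38% of all genes did. All 6 were higher in MEC LII than in LEC LII at P23/P45 (median LFC 1.73, 8.22% of all genes differed). Their summed level at P23/P45 was 3450 to 4970 CPM in MEC LII and 772 to 1830 in LEC LII. The part of these cells in the regional difference of Nefh and Nefm was not tested.

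The 16 group means of each gene gave a similar picture of order. Nefh was highest in MEC LII P45 (8.15 ± 0.18 log2 CPM, n = 4), followed by MEC LII P23 (8.03 ± 0.13, n = 3) and MEC LDeep P45 (7.47 ± 0.16, n = 4), and lowest in LEC LDeep P2 (2.64 ± 0.47, n = 5). Of the 15 pairs of neighbours in this order, 13 overlapped between libraries, the gaps falling below MEC LII P23 and below MEC LDeep P45. Nefl was highest in MEC LII P45 (9.28 ± 0.26, n = 4), and its only gap fell between the P23/P45 groups and the P9 groups. Nefm had no gap between neighbours, and its means went from 6.69 ± 0.27 in MEC LII P45 to 4.35 ± 0.89 in MEC LDeep P2. Ina had a gap above its lowest group, LEC LII P23, and Nes had 1 between the LII and the LDeep groups of P9. Vim had gaps below LEC LDeep P2 and below LEC LDeep P9, so its LDeep groups of P2, P9, and P23/P45 were set apart.

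The genes most like each of the 6 were found by the Pearson correlation of log2 CPM over the 16 group means, among 12521 genes. For Nefl they were Tmem38a (r = 0.9894), Pgam1 (0.9886), and Atp6v1g2 (0.9885), and for Nefh Adarb1 (0.9913), Acbd4 (0.9866), and Slc24a2 (0.9859). For Nefm they included Slc25a16 (0.9582) and Cyp4b1 (0.9491), and for Ina Whsc1l1 (0.9458), Brd8 (0.9431), and Fam117b (0.942). For Vim they were Crabp2 (0.9848), Slc12a7 (0.9803), and Slco2a1 (0.9772), and for Nes Fat4 (0.9816), Rcc1 (0.9749), and Srsf9 (0.9744). Within the 6, Nefl and Nefh correlated at 0.93, Nefm and Nefh at 0.92, and Nefl and Nes at -0.94. The points share ages, regions, layers, and libraries, and 10215 genes changed with age. By this measure Nefh ranked 758 of 12520 genes in likeness to Nefl, and Nefm ranked 1140.

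Other intermediate filament genes did not follow 1 pattern. Of 10 listed, 9 were in the files and tested, of which 4 rose with age and 4 fell (median LFC 0.29, against 0.01 over all genes, of which 81.6% passed). The keratins Krt19 (-2.94) and Krt18 (-2.77), the nuclear lamin Lmnb1 (-2.54), and peripherin, Prph (-2.14), a filament of peripheral and some central neurons, were the largest changes, and the astrocyte filament Gfap rose by 1.57. Between layers 5 were higher in LII and 1 lower, where 54.0% of all genes differed. Krt8 was at 3.95, Krt19 at 3.11, the muscle filament Des at 1.56, and Gfap at 1.26, while Prph was lower at -1.04. Krt8 and Krt19 are epithelial filaments, and Krt8 reached at most 18 CPM in LII. In all 64 libraries 1 gene of the list, Prph, differed between regions, at 0.48 higher in MEC (edgeR test, adjusted p = 0.00533). Of all genes 15.4% differed. In 61 libraries 2 of the list were higher and 1 was lower (17.2% of all genes).

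Genes that link, carry, or clear neurofilaments changed with age in 11 of 11 tested (of 12 listed), 6 of them upwards, where 81.6% of all genes changed. The largest were Cryab (2.77), a small heat shock protein abundant in oligodendrocytes and astrocytes, Hspb1 (1.23), Kif5a (0.85), the neuronal kinesin that moves neurofilaments, and the cross-linker plectin, Plec (0.85). Kif5a was also among the 2 genes of this list higher in MEC, at 0.19 (edgeR test, adjusted p = 0.00398). The other was Kif5c at 0.16, and 15.4% of all genes differed between regions. Between layers 3 were higher and 5 lower in LII, where 54.0% of all genes differed. Hspb1 (1.45), Cryab (0.47), and Plec (0.39) were higher and Kif5a (-0.28) was lower.

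Of 11 kinases, phosphatases, and partners that act on filament proteins, 4 rose and 5 fell with age (median LFC -0.02). Of all genes 81.6% changed with age. Mapk10 rose by 1.18 and Cdk5r2, an activator of Cdk5, by 0.65. Cdk5 itself, a main kinase of the Nefh tail, was at -0.02 (adjusted p = 0.629). Between layers 1 was higher and 6 were lower in LII, where 54.0% of all genes differed. The largest were Mapk8 at -0.63, Ppp2ca at -0.41, Mapk10 at -0.27, and Cdk5 at -0.23. Between regions Mapk3 (-0.28) was lower in MEC.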

How the data were processed

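RNA-seq data of 64 rat samples were analysed. Per the labels, the methods of the study and the file headers, the authors trimmed reads with Trimmomatic 0.33, aligned them to rn6 with STAR 2.4.0, and counted strand-specific read pairs on RefSeq exons with featureCounts (Subread 1.4.6-p1), allowing pairs to count for overlapping genes. The deposited values are these raw counts per gene, not normalized. The Nefm gene model is split by gaps of 1 base. Expression is given as CPM with TMM-scaled library sizes, or on the log2 scale after adding a prior count of 2.

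Differential expression was tested with edgeR 4.0.16 (R 4.3.3), quasi-likelihood F test, filterByExpr, 16 group means, and no replicate block, with Benjamini-Hochberg adjustment over 12521 genes. The SE was taken as the LFC divided by the square root of F. No replicate pair of a group held identical counts. Library-check values in the text are CPM of the total count. DESeq2 1.42.0, limma 3.58.1 with voom, other filters and scalings, blocks, sums, and left-out libraries served as alternatives, and ratios were tested with scipy. The fits were tested on simulated data. The 6 genes and the lists were chosen with earlier results of these data known. All 6 genes are named, with up to 4 genes of largest absolute LFC per list and the 3 most correlated genes per member. Some genes that this rule would name are not reported here.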

Additional observations from a re-analysis of the deposited data

Results flagged for a closer look

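Dixon's ratio is the gap of an extreme library to its nearest neighbour over the range of its group. It was taken for each of the 6 genes in the 12 groups of 4 or 5 libraries, 72 cases that share libraries. In 5 of the 72 cases a library stood apart, where chance gives about 1 in 20. For Nefm, LEC LDeep P2 replicate 3 was at 5.20 log2 CPM against 4.39 to 4.55 in the other libraries (ratio 0.806), and LEC LDeep P9 replicate 4 was at 4.88 against 5.34 to 5.43 (0.835). For Vim, LEC LII P2 replicate 4 was at 8.43 against 8.74 to 8.81 (0.800), LEC LDeep P9 replicate 2 was at 6.26 against 6.03 to 6.05 (0.920), and MEC LII P45 replicate 4 was at 6.43 against 8.48 to 8.66 (0.923).

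An effect differed between groups, by an interaction term in the edgeR fit, for 3 genes. The layer difference of Nefh was larger in MEC than in LEC by 0.89 in all 64 libraries. That call was lost without the 3 MEC P2 libraries (0.61, edgeR test, adjusted p = 0.123) and with limma voom (adjusted p = 0.0597). The layer difference of Vim was larger at P23/P45 than at P2/P9 by 1.77. The LFC of MEC over LEC for Nefm was higher at P23/P45 than at P2/P9 by 0.96. All 3 are on the log2 scale, and for Nefm the values at P9 were negative without passing the edgeR test.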

How the results depend on the processing

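Of 530 counts of genes called under an alternative, 474 stayed within 1.5 times the count in all 64 libraries, and of 3163 values of single genes 3061 kept their direction and side of the threshold. The 1 reversal among these was Nefl between layers at P2, at -0.85 without the 3 MEC P2 libraries. In 2 contrasts added after seeing the data Nefl also changed sign without these libraries, from 0.58 to -1.33 between layers in MEC at P2 and from 0.50 to -1.30 between regions in LII at P2. The cause of the changes below was not tested, except that requiring at least 10 counts in every sample leaves Nes untested. With that filter 1 gene was called for layer in LEC, 1 at P9, 1 at P23, and 1 at P45, and 0 for the layer by region interaction, which also gave 0 with RLE size factors, with limma voom, with no filter, without the 3 MEC P2 libraries, and without the 4 libraries with cerebellar genes. Layer at P2 gave 1 gene with limma voom, 0 in MEC samples only, 1 in LEC samples only, and 1 without the 3 libraries rich in ribosomal RNA. Without those 3, region gave 2 and layer by age 2. Without the 3 MEC P2 libraries, layer at P23 gave 4, region in LDeep 1, layer by age 2, and region by age 3. The ratios averaged over 4 libraries passed in 4 of 4 tests.

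Leaving out 1 replicate number or library at a time gave 5 to 6 genes for P9 over P2. It gave 1 to 2 for layer at P2, 1 to 4 for layer at P23, 2 to 3 for layer at P45, and 2 to 3 for layer in LEC. For region it gave 1 to 2, for region in LDeep 0 to 1, for layer by region 0 to 1, and for region by age 1 to 2.

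Replicate numbers were tried as a block of age and number. Same-numbered libraries correlated at -0.259 to 0.554 (mean 0.134, 96 pairs), with 55 pairs over 0.1. Libraries of the same age with different numbers were at -0.575 to 0.548 (mean -0.043, 300 pairs), with 59 pairs over 0.1. Of the 64 libraries 42 were closest to their own number, so same-numbered libraries were on average more alike. The study ties such numbers to animals for its microRNA samples of MEC, and the labels of these libraries do not. The main fit was kept without a block for want of such labels, and its p-values take no account of this likeness. With the block as a random effect, layer at P2 gave 1 gene and region by age 2. With the fixed block, layer at P23 gave 4, region in LDeep 1, and region by age 2. Nes, with as few as 8 counts, is the gene that depth limits most.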
